A study of Mus musculus with 250 samples.

Results

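Potassium channel genes other than Kcnj10 were followed in 250 single cells, titled brain astrocytes by the submitters. The members are the rows of the read count table whose name begins with Kcn, further letters and a digit, leaving out Kcnj10, the main potassium channel gene of astrocytes, which serves here as a point of reference. The rule found 95 of the 24490 rows. Of these, 92 code for proteins and 3 are noncoding RNAs named after a channel gene (Kcnq1ot1, Kcnd3os and Kcnmb4os1). The cells came from brains of adult C57BL/6 mice about 3 months old of the genotype SM22-Cre;Rosa26-stop-tdTomato, in which Cre under the promoter of the smooth muscle gene Tagln turns on a red fluorescent protein. All cells share this genotype, and the labels name no treatment. They were sorted by fluorescence into wells (the sources used here do not give the gate) and read by Smart-seq2, which copies polyadenylated RNA along its full length and has no molecular identifiers. Each cell was deposited as its own sample with no animal named, so they form 1 group without known biological replicates. Values are therefore described and not tested.

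Potassium channels let potassium ions cross the membrane and set its resting potential. Astrocytes have a very negative, potassium-dominated potential and take up the potassium that active neurons release. Inward rectifier (Kir) and tandem pore domain (K2P) channels are open at rest, voltage-gated (Kv) channels open when the membrane depolarises, and others open with calcium or sodium inside the cell. Most channels are assemblies of subunits, so pore-forming genes are listed here with their known partners.

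Cells had a median of 282290 counted reads, with a range of 102161 to 564958. The column names carry a short form usual for vascular smooth muscle cells followed by 2 or 3. These prefixes are called plate 2 (162 cells, median 256247 reads) and plate 3 (88 cells, median 391072 reads) and are used as technical batches. The astrocyte label was checked with 12 markers, and a cell had 8 to 12 of them. Of 6 smooth muscle markers, 2 reached 10% of the cells, Acta2 in 39 and Myl9 in 28 cells, and Tagln itself was detected in 5. In 49 cells (19.6%), 3 or more markers of some other type were present, in 32 of them those of oligodendrocytes. Levels are given as CPM, the read count as a share of the cell's total scaled to 1000000, and detection means a level of 10 CPM or above. Intervals of shares are exact binomial (Clopper-Pearson) intervals at 95%, and they cover counting error only. The SD is that between cells.

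The shared signature of these channels is the selectivity filter, a short loop that lets potassium pass and holds back the smaller sodium ion. The coding stretch of the filter is shown for some of the members that lead the results below, without Kcnn2. The shared part can thus be seen across Kir, K2P, sodium-activated and Kv genes. Each run holds 45 bases of the coding strand from GENCODE M21 transcripts (GRCm38), and the capitals mark the 3 codons at the centre of the filter, most often those for glycine, tyrosine and glycine.
Kcnj16: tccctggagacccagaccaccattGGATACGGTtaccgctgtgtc
Kcnk1, first loop: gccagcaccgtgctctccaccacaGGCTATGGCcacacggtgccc
Kcnk1, second loop: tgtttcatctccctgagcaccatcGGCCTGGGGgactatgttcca
Kcnt1: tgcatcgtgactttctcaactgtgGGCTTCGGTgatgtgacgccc
Kcnd2: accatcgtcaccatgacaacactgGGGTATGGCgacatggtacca
Kcna2: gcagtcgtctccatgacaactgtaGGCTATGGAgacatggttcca
Kcnc4: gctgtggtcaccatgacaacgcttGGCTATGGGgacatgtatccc

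The Kcnj16 run lies at chr11:111024886-111024930 on the plus strand, within a coding exon. The second loop of Kcnk1 lies at chr8:126025311-126025355, and its middle capital codon is CTG in place of the TAT of the first loop. The run of Kcnt1 lies at chr2:25894349-25894393 with TTC in the middle, that of Kcna2 at chr3:107105206-107105250 and that of Kcnc4 at chr3:107447787-107447831, the last on the minus strand. The first loop of Kcnk1 and the Kcnd2 run each span an exon junction. The runs were found by an in-frame search for ACN, any codon, GGN, a codon of tyrosine, phenylalanine or leucine, and GGN. This codon pattern was in 65 of the 76 pore-forming or silent members and in 0 of the 16 auxiliary members, against 1.98% of 21794 protein-coding genes. The search asks for ACN first, so a filter that begins with another codon is missed. A member without the pattern may therefore still have a filter. All 14 K2P members held the pattern at least 2 times, and 0 of the other 62 pore-forming or silent members did.

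Reads were found for 72 of the 95 members (75.8%), beside 66.8% of all rows. A smaller share of members than of all genes with reads reached 10% of the cells, while at 50% it was not smaller. Detection in 10% of the cells or more was reached by 15 of the 72 members with reads (20.8%), while 45.3% of all genes with reads reached it. Detection in 50% or more was reached by 6 members (8.33%) and by 5.92% of all genes. These 6 were Kcnk1, Kcnip3, Kcnt1, Kcnq1ot1, Kcnn2 and Kcnj16. A further 36 members were detected in at least 1 cell but in under 5%, 15 had reads but never 10 CPM, and 23 had no read. The median of the mean level was 2.55 CPM over members with reads, beside 14.9 CPM over all genes with reads. The 5 coding genes of the 6 held 66.6% of the summed CPM of the 92 coding members, which was 2516 ± 1147 CPM per cell (SD, n = 250). Kcnj10, for reference, had 836 ± 755 CPM (SD, n = 250) and was detected in 227 cells (90.8%).

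**Figure D1:**
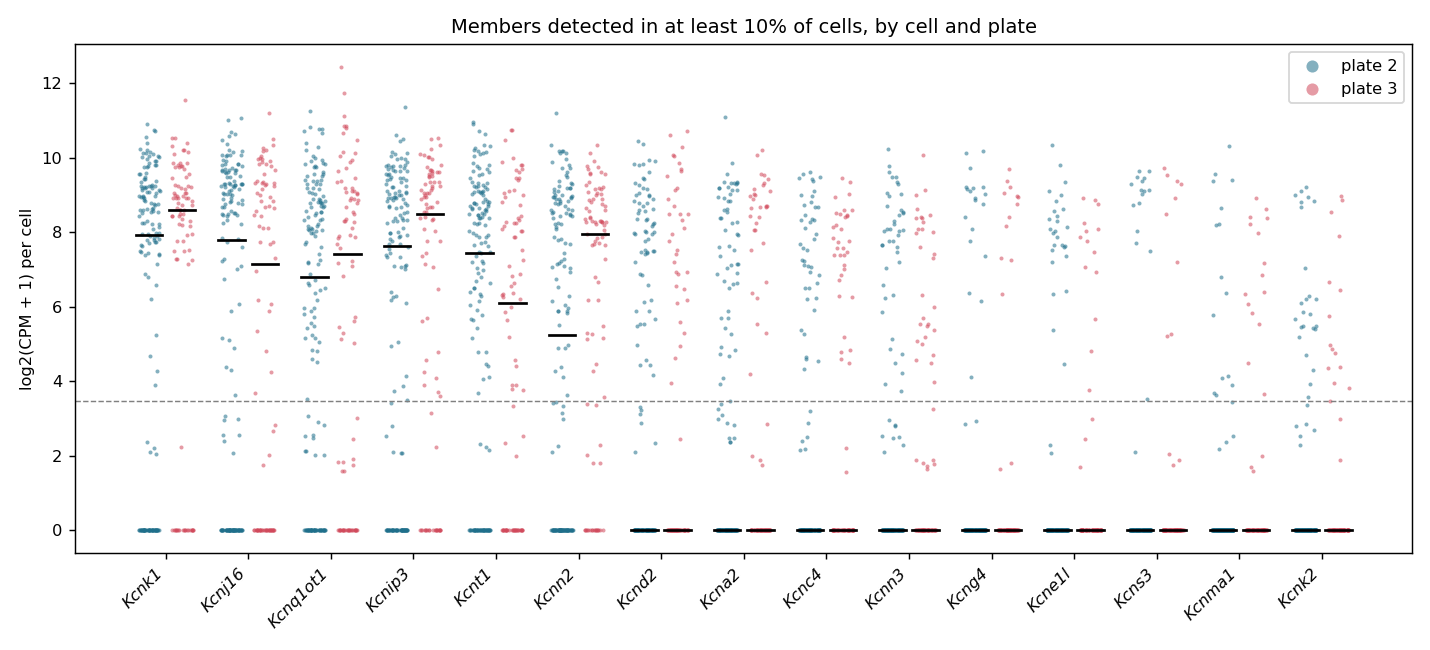
Level of the 15 members detected in at least 10% of the cells, as log2(CPM + 1) on the y axis, with 1 point per cell, plate 2 in blue and plate 3 in red, the median of each plate as a black bar, and the detection limit of 10 CPM as a dashed line. Every gene shown has many cells at 0, most detected cells of the frequent genes lie well above the limit, those of Kcnk2 lie closer to it, and from Kcnd2 rightwards the medians are 0 on both plates.

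Among K2P genes, whose channels carry leak currents, Kcnk1 stood out. Kcnk1 codes for TWIK-1, a weakly rectifying leak channel known from astrocytes. It had 400 ± 435 CPM (SD, n = 250), with a lowest cell at 0, a median of 304 CPM and a highest cell of 3015 CPM. Detected in 174 cells (69.6%, 63.5 to 75.2%), it had a median of 486 CPM in those cells, and 97.7% of them had 50 CPM or more. Cells thus fell into those with no read (71 cells) and those with many, with few in between. Because full-length reads make a long transcript yield more reads, levels of single genes are ranked per kilobase (kb) of merged exon, while sums and medians over many genes are in CPM and carry transcript length. On that scale Kcnk1 had 179 CPM per kb, the highest of the members, beside 155 CPM per kb for Kcnj10, a gap well within the spread between cells. Mean levels on plates 2 and 3 were 364 and 467 CPM for Kcnk1, and 681 and 1121 CPM for Kcnj10. The gap over all cells thus depends on the mix of plates. The gene lies on chromosome 8 at 125995170 to 126030685 (GRCm38, plus strand). Kcnk1 shares 179 bases of exon with an antisense gene, and reads from these bases cannot be told apart in these data. In all, 31 members share exon bases with another gene.

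Kcnk2, which codes for the stretch- and lipid-sensitive channel TREK-1 and is described as a partner of TWIK-1 in astrocytes, had 5.18 CPM per kb. It was detected in 40 cells (16%, 11.7 to 21.1%) at a mean of 25.6 ± 96.7 CPM, with a median of 53.7 CPM in those cells. Of its detected cells, 52.5% had 50 CPM or more. Kcnk2 shares 604 bases of exon with an antisense gene. Kcnk10, which codes for TREK-2, was detected in 7 cells. Of the other K2P members, Kcnk9, Kcnk12, Kcnk15, Kcnk16 and Kcnk18 had no read.

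Of the Kir members, Kcnj16 alone reached 10% of the cells. Its protein, Kir5.1, joins the Kcnj10 product Kir4.1 to form a channel that is sensitive to pH. Kcnj16 had 370 ± 453 CPM (SD, n = 250), with a lowest cell at 0, a median of 198 CPM and a highest cell of 2345 CPM. It was detected in 148 cells (59.2%, 52.8 to 65.3%), with a median of 590 CPM in those cells. Per kb it had 94.0 CPM, rank 3 among members. The gene lies on chromosome 11 at 110968033 to 111027968. Kcnj14 (Kir2.4) followed in 14 cells (5.6%), and its mean was 5.25 CPM.

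Other Kir genes were rarely or never detected. Kcnj2, which codes for Kir2.1 of endothelial and muscle cells, had 0 reads, as did Kcnj4, Kcnj1 and Kcnj15, and a count of 0 in 250 cells, read as up to 3 cells, leaves room for a share of cells with reads up to 1.2%. The exact interval for 0 cells reaches 1.46%, and neither limit covers transcripts lost before sequencing. Kcnj12 had 2 reads. The channel gene of pericyte and smooth muscle ATP-sensitive channels, Kcnj8, had 7 reads in all, and its partner Abcc9 was detected in 0 cells. Kcnj11 was detected in 1 cell and its partner Abcc8 had no read. Kcnj13, detected in 6 cells, shares 623 bases of its 1.27 kb of exon with the gene Gigyf2 on the other strand.

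The calcium- and sodium-activated genes were led by Kcnt1 and Kcnn2. Kcnt1 codes for the sodium-activated channel Slack, best known from neurons. It had 294 ± 396 CPM (SD, n = 250), a median of 114 CPM and a highest cell of 1987 CPM, and was detected in 166 cells (66.4%, 60.2 to 72.2%). Its partner gene Kcnt2 (Slick) was detected in 1 cell. Kcnn2, the gene of the small-conductance calcium-activated channel SK2, had 255 ± 335 CPM, a median of 103 CPM and a highest cell of 2369 CPM, and was detected in 153 cells (61.2%, 54.9 to 67.3%). Per kb both were lower than Kcnk1 and Kcnj16, with 31.0 CPM for Kcnt1 and 34.1 CPM for Kcnn2. Kcnn2 lies on chromosome 18 at 45268860 to 45686024, with 323 exon bases shared with a pseudogene on the other strand, and Kcnt1 on chromosome 2 at 25863734 to 25918273.

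Of the other SK genes, Kcnn3 (SK3) was detected in 72 cells (28.8%) at 78.2 ± 184 CPM and Kcnn1 (SK1) in 19 cells (7.6%), while Kcnn4, of the intermediate-conductance channel of blood cells, had no read. An SK gene was detected in 183 cells (73.2%). Kcnma1, which codes for the large-conductance BK channel, was detected in 30 cells (12%) at 29.7 CPM, and 1 cell held 17.0% of its summed CPM. It shares 1016 exon bases with a noncoding gene on the other strand. The BK beta subunits were nearly absent, with Kcnmb4 in 1 cell, 11 reads for Kcnmb1 and none for Kcnmb2 and Kcnmb3.

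Among Kv genes, a single member of each of 3 families accounted for most of the reads. Kcnd2 codes for Kv4.2, a fast inactivating A-type channel. It had 157 ± 302 CPM (SD, n = 250) with a median of 0 CPM and a highest cell of 1681 CPM, and was detected in 100 cells (40%, 33.9 to 46.4%). Kcna2, of the delayed rectifier Kv1.2, was detected in 86 cells (34.4%) at 127 ± 260 CPM and reached 2178 CPM. Kcnc4, of the Kv3.4 channel, was detected in 77 cells (30.8%) at 81.6 ± 168 CPM. All 3 had no read in most cells and a median above 200 CPM in the cells with detection, 280 CPM for Kcnd2, 335 CPM for Kcna2 and 206 CPM for Kcnc4.

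The rest of the Kv genes were in few cells. Kcnd3, of the A-type channel Kv4.3, was detected in 15 cells and Kcna6, of the Kv1.6 channel, in 13. Kcna1, the neuronal relative of Kcna2, had 5 reads, and Kcnb2, Kcnq1 and Kcna10 had none. In the Kv7 family, the source of the M-current of neurons, a member was detected in 16 cells in all. In the EAG family Kcnh2 and Kcnh1 were in 5 cells each. Per kb, Kcnd2 had 30.6 CPM, Kcnc4 22.3 CPM and Kcna2 10.7 CPM.

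Kcng4 and Kcns3 belong to the silent subunits, which make no channel alone and modify Kv2 channels. Kcns3 (Kv9.3) was detected in 25 cells (10%, 6.58 to 14.4%) and Kcng4 (Kv6.4) in 31 cells (12.4%, 8.58 to 17.1%). In those cells the medians were 546 CPM for Kcns3 and 483 CPM for Kcng4, and no other silent member reached 5% of the cells.

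The auxiliary members were led by Kcnip3, which codes for KChIP3, a calcium-binding subunit of Kv4 channels that is also known as calsenilin and as the transcriptional repressor DREAM. Kcnip3 had 356 ± 403 CPM (SD, n = 250), with a lowest cell at 0, a median of 240 CPM and a highest cell of 2655 CPM. It was detected in 169 cells (67.6%, 61.4 to 73.4%) and had 101 CPM per kb, rank 2 among members. The gene lies on chromosome 2 at 127456498 to 127522094 on the minus strand. The other Kv4-binding members were rare, with Kcnip4 in 10, Kcnip2 in 7 and Kcnip1 in 5 cells. The X-linked Kcne1l, a member of the Kcne family of small regulatory subunits, was detected in 41 cells (16.4%) at 48.5 CPM and, with its short transcript, 31.4 CPM per kb. The Kv1 beta subunits Kcnab1, Kcnab2 and Kcnab3 were detected in 8, 6 and 9 cells, although Kcna2 was in 86.

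Of the noncoding members, Kcnq1ot1, the long antisense RNA that silences imprinted genes around Kcnq1, was detected in 159 cells (63.6%) at 364 ± 597 CPM, with a highest cell of 5534 CPM. It spans 93.1 kb without introns, so this is 3.91 CPM per kb. Kcnq1 itself, within which it lies on chromosome 7 at 143203458 to 143296549, had no read. Kcnd3os was detected in 4 cells and Kcnmb4os1 in 0.

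A cell combined several channels. The number of coding members detected per cell was 6 in the median, with a range of 1 to 14 and quartiles of 4 and 8. Pore-forming members alone gave a median of 5 and auxiliary members of 1. The count was 6 in the median on each plate. It hardly followed the total count of a cell, with Spearman rho of 0.0938 on plate 2 and 0.0356 on plate 3 over cells, and it followed the number of genes detected, with 0.406 and 0.407. These are descriptions over cells that share a plate and their depth.

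**Figure D2:**
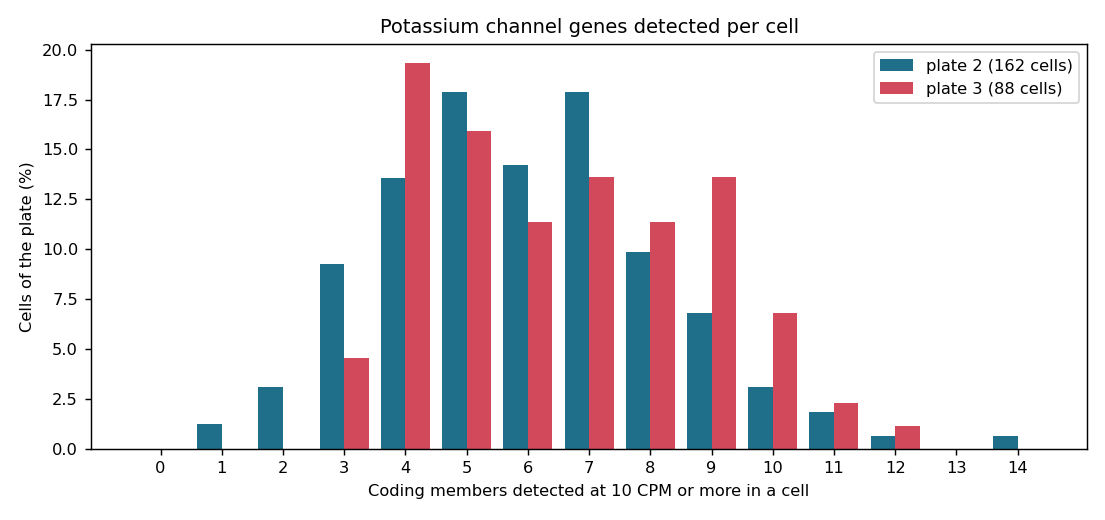
Number of coding members detected at 10 CPM or more in a cell (x axis) against the share of the plate's cells in percent (y axis), with plate 2 in blue and plate 3 in red. The distributions of both plates are centred near 6 members, and the cells with 1 or 2 members are all on plate 2.

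The combination detected differed from cell to cell. Transcripts can be lost before sequencing, and the part of such loss in these differences was not tested. Of the 5 coding genes found in most cells (Kcnk1, Kcnj16, Kcnip3, Kcnt1 and Kcnn2), 42 cells (16.8%) had all, 83 cells (33.2%) had 3, and 4 cells had none. No cell lacked these 5 and Kcnj10 together. With Kcnj10 detected in 227 cells and only 4 cells without the 5, this says little. The coding member with the highest CPM was Kcnj16 in 50 cells, Kcnk1 in 44, Kcnip3 in 43, Kcnt1 in 34, Kcnd2 in 18 and Kcnn2 in 17, and 22 different genes held that place in at least 1 cell. This ranking uses CPM, which favours long transcripts. The leading member held 36.2% of the cell's summed member CPM in the median.

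The same members were frequent on both plates. Mean levels of Kcnj16 were 377 and 357 CPM on plates 2 and 3, with 59.3% and 59.1% of cells. Kcnk1 had 364 and 467 CPM with 66.0% and 76.1%, Kcnip3 332 and 401 CPM with 63.6% and 75.0%, and Kcnt1 320 and 246 CPM with 69.1% and 61.4%. Kcnd2 was detected in 40.1% and 39.8% of cells. Kcnn2 had the widest gap in share of cells among the 21 members tested, 54.3% (46.3 to 62.2%) on plate 2 and 73.9% (63.4 to 82.7%) on plate 3. The intervals of the plates overlapped for 20 of the 21 members, and Kcnn2 was the exception. The matching share over all genes was not computed, so whether such an exception is unusual cannot be said. Its median in cells with detection was 368 CPM on plate 2 and 315 CPM on plate 3. Depth also differed between the plates, and its part in this gap was not tested.

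Of the 21 members detected in at least 5% of the cells, 3 (14.3%) differed by 2-fold or more in mean CPM between the plates, beside 14.5% of all 9517 such genes. Among 2 members higher on plate 3 (5.75% of all genes) was Kcna6, with 8.67 and 28.5 CPM on plates 2 and 3. Higher on plate 2 (8.73%) was Kcnd3, with 32.0 and 15.7 CPM. Kcna6 was detected in 13 cells and Kcnd3 in 15, and both share exon bases with an antisense gene, 2355 for Kcna6 and 165 for Kcnd3. The share of cells with Kcna6 was 4.32% on plate 2 and 6.82% on plate 3, with overlapping intervals. None of the 15 members detected in at least 10% of cells passed 2-fold. The median log2 ratio of plate 3 over plate 2 was 0.10 over the 21 members and -0.03 over all genes.

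**Figure D3:**
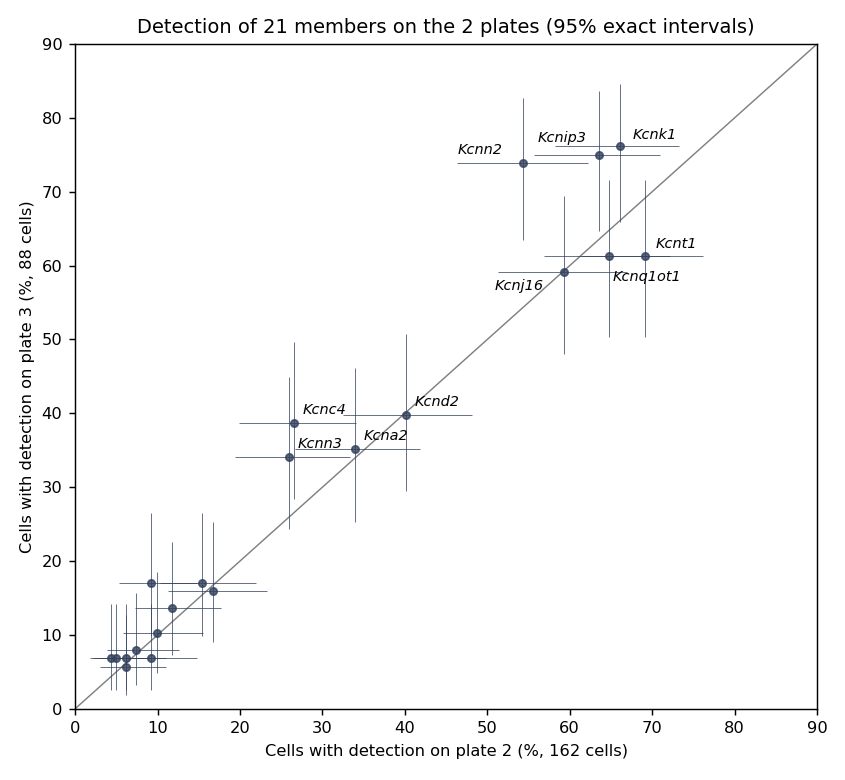
Share of cells with detection on plate 2 (x axis) and plate 3 (y axis), in percent, for the 21 members detected in at least 5% of the cells, with 95% exact intervals as bars and the line of equality. The points lie along the line, and Kcnn2, at 54.3% and 73.9%, is the 1 member whose intervals do not overlap.

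The partner subunits found in many cells were detected together about as often as independence would give. The number expected was computed from the shares of each gene on each plate. Kcnj10 and Kcnj16 were both detected in 135 cells, where 134.4 were expected, a ratio of 1.00. With Kcnj10 detected in 227 cells, few cells lack it, and this ratio could only lie near 1. It therefore says little on whether the genes go together. Kcnj16 was found in 59.5% of the cells with Kcnj10 and in 56.5% of the cells without, which are 23 cells. Spearman rho of their levels across cells was 0.06 on plate 2 and 0.01 on plate 3. Kcnj16 was thus absent by this measure from 92 cells with Kcnj10, and 13 cells had Kcnj16 without Kcnj10.

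For the A-type channel, Kcnd2 and Kcnip3 were both detected in 68 cells where 67.6 were expected, a ratio of 1.01. Of the cells with Kcnd2, 68% had Kcnip3, beside 67.3% of those without. Kcnd3 and Kcnip3 met in 8 cells where 10.1 were expected. Kcnd2 and Dpp6, which codes for a membrane partner of Kv4 channels, met in 12 cells where 8.01 were expected, a ratio of 1.5, and Dpp6 itself was found in 20 cells. Dpp10, the other gene of this kind, was detected in 1 cell.

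Kcnn2 and Kcnn3, whose products can form mixed channels, were both found in 49 cells where 45.0 were expected, a ratio of 1.09. Kcnk1 and Kcnk2 met in 23 cells where 27.9 were expected, a ratio of 0.82, with 0.85 on plate 2 and 0.79 on plate 3. Their rho was -0.11 on plate 2 and -0.24 on plate 3. Kcnk2 was in 13.2% of the cells with Kcnk1 and in 22.4% of those without.

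**Figure D4:**
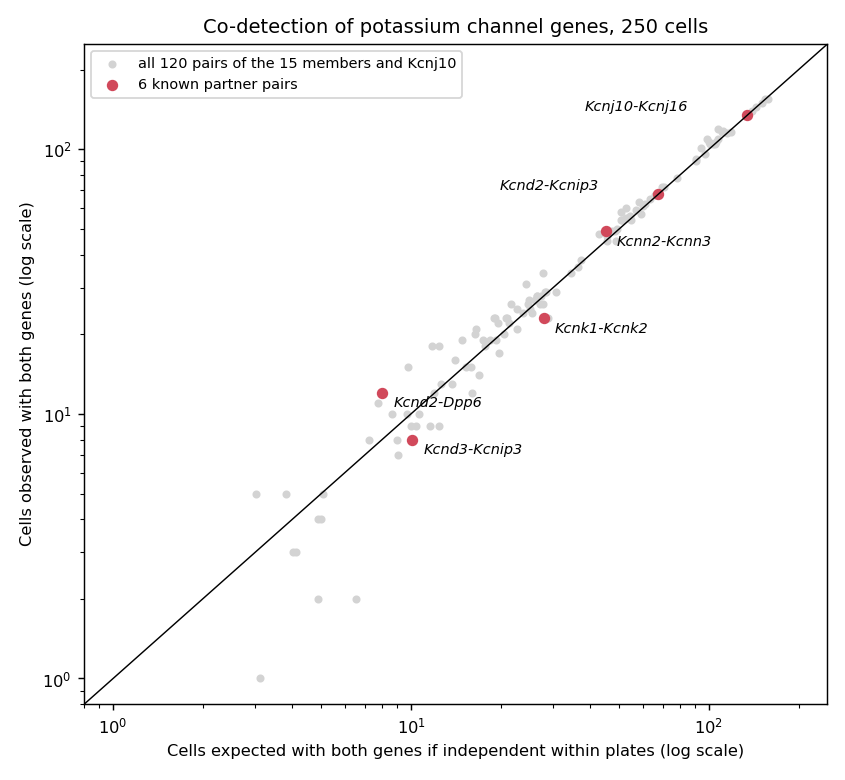
Cells with both genes of a pair (y axis) against the number expected if detection were independent within each plate (x axis), on log scales, for all 120 pairs of the 15 frequent members and Kcnj10 in grey and 6 of the known partner pairs with both genes in at least 5% of cells in red, with the line of equality. Kcnj10 with Kcnj16 lies on the line at 135 cells, and the pairs that stray from it are mostly those expected in few cells.

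Of the 39 partner pairs listed, 9 had both genes in 5% of the cells or more, and a partner had no read in 6 (Kcnj2, Kcnk9, Kcnmb2, Kcnb2, Abcc8, and Kcnq1 with Kcne1). The other 24 pairs rest on 5 or fewer cells with both genes. Among all 120 pairs of the 15 frequent members and Kcnj10, the median ratio was 1.02, with a range of 0.305 to 1.66. The mean of the plates' rho lay between -0.18 and 0.17, and 0 pairs had a rho over 0.2 on both plates. The lowest of the 120 was Kcnk1 with Kcnk2, the 1 pair under -0.1 on both plates. Correlations of this size in sparse counts are no finding.

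Kcnk1 was set against 12 genes listed as markers of regional or reactive astrocyte states. Its level was lower in cells with more Nnat, with Spearman rho of -0.38 over the 162 cells of plate 2 and -0.26 over the 88 of plate 3. Nnat codes for neuronatin, a small membrane protein of an imprinted gene. With the matrix gene Sparc rho was -0.30 and -0.27, with Agt (angiotensinogen) -0.39 and -0.15, and with Itih3 -0.27 and -0.19. With Car2, a carbonic anhydrase gene, it was 0.33 and 0.21. Kcnk1 was detected in 65.3% of the 193 cells with Nnat and in 84.2% of those without, and in 76.6% of the 171 cells with Car2 and in 54.4% of those without. By plate, Kcnk1 and Nnat met in 81 cells where 85.9 were expected on plate 2 and in 45 where 48.0 were expected on plate 3. Kcnk1 and Car2 met in 86 cells where 74.0 were expected on plate 2, but in 45 where 44.9 were expected on plate 3, so detection showed no relation to Car2 there. Both comparisons were chosen after the values were seen. Over the 126 cells with both Kcnk1 and Nnat, rho averaged over the plates was -0.24, and over the 131 cells with both Kcnk1 and Car2 it was 0.10. The relations are over cells that share plates, depth and unknown animals, and they carry no test.

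**Figure D5:**
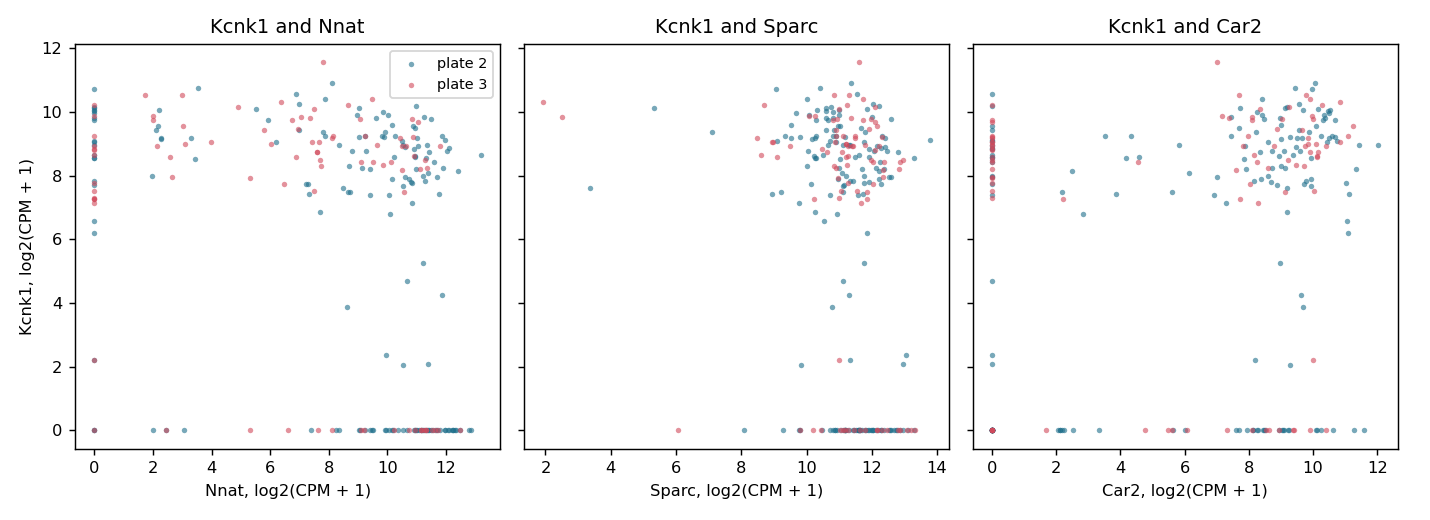
Kcnk1 (y axis) against Nnat, Sparc and Car2 (x axes), all as log2(CPM + 1), with 1 point per cell and plate 2 in blue and plate 3 in red. Cells without Kcnk1 lie mostly at high Nnat and high Sparc, while Kcnk1 cells extend over the whole range of Nnat. Most cells of either kind had Nnat, which was detected in 72.4% of the cells with Kcnk1 and in 88.2% of those without.

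Of 192 relations between the 15 members with Kcnj10 and 12 regional genes, 1 had rho over 0.2 on both plates, Kcnk1 with Car2, and 2 had rho under -0.2 on both, Kcnk1 with Nnat and with Sparc. The same count was not made over all genes, so these relations cannot be called particular to Kcnk1. Kcnip3 had 0.16 and 0.25 with Itih3. Kcnk2 had 0.20 and 0.31 with the water channel gene Aqp4, on 40 cells with detection. Others were of like size, such as Kcnt1 with Aqp4 (0.13 and 0.30) and Kcng4 with Itih3 (-0.26 and -0.11). These examples were chosen after the values were seen and are no finding. Kcnj16 had between -0.09 and 0.20 with each of the 12 genes. The median over the 192 relations was 0.00.

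The frequent members were also counted without the cells that carried markers of other cell types. Without the 49 cells that had 3 or more such markers, Kcnk1 was detected in 67.7% of cells, Kcnj16 in 59.2%, Kcnip3 in 68.7%, Kcnt1 in 65.7% and Kcnn2 in 62.2%. In the 49 cells the shares were 77.6%, 59.2%, 63.3%, 69.4% and 57.1%, in the same order. Mean Kcnk1 was 527 CPM in the 49 cells and 369 CPM in the 201 others. Kcnd2 was in 37.3% of the 201 cells and in 51.0% of the 49, and Kcna2 in 31.8% and 44.9%. Of the rho values with regional genes that were recomputed without the 49 cells, 1 moved by at least its gap between plates and 6 did not. That check was chosen after seeing the data. Of 9 oligodendrocyte markers 3 reached 10% of the cells and 2 of these reached 50%, and of 5 oligodendrocyte precursor markers 2 and 1 did. Of 9 neuron markers 4 reached 10%, of 6 pericyte markers 2, of 5 fibroblast markers 2, and none of the microglia, endothelial or ependymal markers. Among the markers of these lists that stayed under 10%, Mog and Mag of myelin were detected in 1 cell each, and Rbfox3 of neurons in 6. Other markers of these lists were widespread, among them Cnp in 191 cells, Olig1 in 173, Mbp in 60, Stmn2 in 56 and Snap25 in 39. The 201 cells are therefore not free of such markers, and their part in the levels above was not tested.

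Of 15 other genes of potassium transport, 7 reached 10% of the cells and 2 reached 50%. Atp1b2, a sodium pump subunit of glia, was in all 250 cells at 1888 CPM per kb, above every channel gene on that scale. The potassium chloride cotransporter gene Slc12a4 was in 123 cells, Slc12a2 of potassium uptake with sodium and chloride in 26, and the neuronal Slc12a5 in 3. The cation channel genes of the Hcn family were rare, with Hcn3 leading in 16 cells.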

How the data were processed

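Single-cell Smart-seq2 libraries of 250 cells were analysed from the deposited table of whole-number read counts, which the authors had not normalized. Another table deposited by the authors gives a score, equal in 100% of entries to the rounded count after scaling cells to 500000, and served only as an alternative source of mean levels. STAR 2.4.2a and the build mm10 are named, per the submitters' processing notes. The counting tool, strand setting, annotation and cell filter were not given in the sources used here.

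CPM, shares, Spearman rho within plates and co-detection were computed with Python 3.11.15, pandas 2.3.3, numpy 2.4.6 and scipy 1.17.1, and the scripts were tested on simulated data. All 95 members matched a GENCODE M21 symbol. All cells were kept, and no doublet caller was run on these sorted wells. Reads without molecular identifiers are not independent molecules. Members, marker lists and partner pairs were chosen with earlier results of these data known. Named in the text are members detected in at least 10% of cells, the leading member of each family per kb, members past 2-fold between plates, members with a cell at 500 CPM or more, and members of partner pairs. Others named, such as members without reads, were chosen after their values were seen. Some genes, and the sequence of 1 gene, are not reported here. Alternatives covered the detection limit, thinning to 100000 reads, each plate alone, cells with markers of another type, the total used for scaling, and the filter on low values.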

Additional observations from a re-analysis of the deposited data

How the results depend on the processing

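Under all 8 other settings tried, the same 6 members reached 50% of the cells. The number that reached 10% lay between 12 at 50 CPM, where Kcnk2, Kcnma1 and Kcns3 were lost, and 17 at 1 read or at 5 CPM, where 2 members were added. The count of members past 2-fold between the plates moved with the filter on low values. It was 0 among the 15 members in at least 10% of cells, and 18 of 48 members (37.5%) with no filter, beside 29.2% of all genes. With the other settings it was 2 to 4. Kcnd3 (-1.03 on the log2 scale) lies close to 2-fold and fell below it with cells thinned to 100000 reads (-0.93). It also fell below 2-fold when the counts of each plate were summed before the ratio was taken. With thinning, 2 members in all fell below 2-fold and 1 rose past it. Without the highest cell of each plate, 1 member rose past it. Over cells with both genes, rho of Kcnk1 was -0.18 with Sparc and -0.07 with Itih3, an alternative chosen after seeing the data. The depth limits statements on rare members, since 10 CPM was 2.82 reads in the median cell.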
